A study of Mus musculus with 3 samples.

Results

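The chemokine ligands described here were the genes of the count tables whose symbol began with Ccl, Cxcl, Cx3cl or Xcl and went on with a number and at most a letter. The pattern found 44 gene identifiers under 38 symbols among the 32285 genes of the tables. Of these identifiers, 8 had no UMI (unique molecular identifier, the tag that marks a counted RNA molecule) in any cell kept, 8 had 1 to 49 UMIs and 28 had 50 or more. Levels were measured in single cells of the whole aorta, from the arch to the iliac bifurcation, of male gene-replacement mice in which human APOE2, APOE3 or APOE4 stands in the place of the mouse Apoe gene, backcrossed to C57BL/6J. All groups received a Western-type diet with 42% fat and 0.2% cholesterol for 16 weeks from 12 weeks of age, so no group on another diet was measured. Each aorta was digested and the cells of 6 mice for APOE2, 5 for APOE3 and 7 for APOE4 were then pooled, and each pool gave 1 library. With 1 library per genotype no test between genotypes was possible. Levels are UMI counts scaled to 1000000 UMIs of the cell class (CPM) with exact Poisson 95% intervals. Differences are log2 ratios of CPM with exact conditional binomial 95% intervals. The intervals hold the counting error of summed UMIs but no difference between cells, mice or pools. They are therefore too narrow where few cells hold most UMIs of a member.

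Chemokines are small secreted proteins, a few of them tethered to the membrane, that bind G protein-coupled receptors on leukocytes and set the direction in which these cells move. Members with the CXC motif next to a Glu-Leu-Arg triplet attract mainly neutrophils through Cxcr2, many CC members attract monocytes, T lymphocytes or eosinophils, and a homeostatic set (Cxcl12, Cxcl13, Ccl19, Ccl21a) places lymphocytes and progenitors in tissues. In atherosclerosis Ccl2 with Ccr2, Cx3cl1 with Cx3cr1 and Ccl5 are known for bringing monocytes to the artery wall, and Cxcl12 is made by vascular cells.

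After filtering (at least 200 genes and under 20% mitochondrial UMIs per cell) 26757 cells remained (11772, 6737 and 8248 for APOE2, APOE3 and APOE4), with median depths of 12047, 17618 and 13521.5 UMIs per cell. The cells were clustered without the chemokine members, and clusters were named from fixed marker lists: smooth muscle-like (7312, 4210 and 5515 cells in APOE2, APOE3 and APOE4), fibroblast-like (1188, 634 and 933), macrophage-like (419, 116 and 128), T lymphocyte-like (130, 23 and 112), B lymphocyte-like (32, 10 and 271), endothelial-like (118, 19 and 30) and neutrophil-like (56, 10 and 7). Left unnamed were 2517, 1715 and 1252 cells of further clusters with smooth muscle markers, in which other genes led or depth was low. Smooth muscle-like cluster 2 was mostly of APOE2 (2070 cells, against 435 and 372). Between 14 and 27 cells kept per pair of libraries shared a barcode. Mouse Apoe, which the replacement removes from its locus, was counted over all cells at 191, 200.1 and 181 CPM for APOE2, APOE3 and APOE4, and since the tables do not separate the human alleles the genotype labels were not checked here.

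The family lies in a few gene runs, which carried most of its UMIs. On chromosome 5 of GRCm38, Cxcl5, Cxcl3, Cxcl15, Cxcl1 and Cxcl2 lie between positions 90759360 and 90905938 and held 36.1% of all UMIs of the family. On chromosome 11, Ccl5, Ccl9, Ccl6, Ccl3 and Ccl4 (83525778 to 83664683) held 22.6%, and Ccl2, Ccl7, Ccl11, Ccl12, Ccl8 and Ccl1 (82035571 to 82305690) held 11.2%. Promoters are shown for the Cxcl1, Cxcl2 and Cxcl3 genes, whose levels moved together in smooth muscle-like cells of APOE2. They are also shown for Cxcl10, the interferon-induced member, and for Cxcl12, the leading member of fibroblast-like cells in APOE2 and APOE3. Each is the 250 bases before the start of the gene in RefSeq, on GRCm38.p6, written 5′ to 3′ on the strand of the gene. Capitals mark matches, on either strand, to the NF-κB consensus and, in Cxcl10 at its first capitals, to the interferon-stimulated response element written as TTTCNNTTTC.
Cxcl1, chr5:90890995-90891244 (plus strand): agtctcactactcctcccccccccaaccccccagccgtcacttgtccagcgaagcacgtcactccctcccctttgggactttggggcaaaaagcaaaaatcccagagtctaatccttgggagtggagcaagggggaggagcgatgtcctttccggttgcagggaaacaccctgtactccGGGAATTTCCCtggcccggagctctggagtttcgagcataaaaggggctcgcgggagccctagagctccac
Cxcl2, chr5:90903649-90903898 (plus strand): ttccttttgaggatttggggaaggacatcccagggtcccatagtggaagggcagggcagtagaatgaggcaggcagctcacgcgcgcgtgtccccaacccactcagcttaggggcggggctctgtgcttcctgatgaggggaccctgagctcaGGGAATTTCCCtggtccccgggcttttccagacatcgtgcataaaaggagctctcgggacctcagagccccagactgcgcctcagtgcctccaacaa
Cxcl3, chr5:90785851-90786100 (plus strand): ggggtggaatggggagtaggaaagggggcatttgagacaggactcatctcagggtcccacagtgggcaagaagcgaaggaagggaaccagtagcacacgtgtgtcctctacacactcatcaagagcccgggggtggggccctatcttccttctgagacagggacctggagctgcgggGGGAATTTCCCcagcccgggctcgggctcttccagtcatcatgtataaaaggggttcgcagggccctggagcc
Cxcl10, chr5:92348890-92349139 (minus strand): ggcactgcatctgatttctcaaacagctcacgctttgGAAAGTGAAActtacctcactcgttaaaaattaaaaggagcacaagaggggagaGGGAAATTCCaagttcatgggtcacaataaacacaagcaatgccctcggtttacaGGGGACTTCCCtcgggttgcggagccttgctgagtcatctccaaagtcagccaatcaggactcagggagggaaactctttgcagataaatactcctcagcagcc
Cxcl12, chr6:117168285-117168534 (plus strand): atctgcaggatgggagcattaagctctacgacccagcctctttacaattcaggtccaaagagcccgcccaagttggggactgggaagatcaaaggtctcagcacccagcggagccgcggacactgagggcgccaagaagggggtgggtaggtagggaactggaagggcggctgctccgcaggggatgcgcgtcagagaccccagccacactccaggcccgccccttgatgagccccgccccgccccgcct
Of the 38 symbols, 28 had a promoter in the RefSeq table. The NF-κB consensus matched in the 250 bases of 7 of them (Ccl1, Ccl9, Ccl20, Cxcl1, Cxcl2, Cxcl3 and Cxcl10), against 7.25% of all 32851 promoters of the table. In Cxcl1, Cxcl2 and Cxcl3 the match was the same GGGAATTTCC, starting at -71, -97 and -73 from the gene start, and overlapping matches on both strands make up the capitals. The interferon-stimulated element matched in 3 (Ccl19, Cxcl10 and Cxcl14), against 2.98% of all promoters. The Cxcl12 stretch held neither set of letters. A match is a description of the letters and was not tested as a binding site.

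The cell classes differed in the summed level of the family and in the members that led it. Summed over the family, neutrophil-like cells carried 27298 CPM in APOE2, 18455 in APOE3 and 40428 in APOE4, from 56, 10 and 7 cells. Macrophage-like cells carried 21346, 17250.2 and 26715 CPM, fibroblast-like cells 1926, 1372 and 1505 CPM, and smooth muscle-like cells 349, 114 and 141 CPM. B lymphocyte-like cells carried 117, 95.8 and 103 CPM. In all 3 libraries neutrophil-like and macrophage-like cells stood above the stromal classes. The B lymphocyte-like cells lay at the level of the smooth muscle-like cells in APOE3, where only 10 of them were found, and below every other class in APOE2 and APOE4. At least 50 CPM and 50 UMIs in a named class of a library were reached by 20 members. The plot of levels by cell class shows a myeloid block led by Cxcl2 and Ccl4 and a stromal block led by Cxcl12, Cxcl1 and Ccl19. Fewer members reached that level in the lymphocyte and endothelial classes. T lymphocyte-like cells were led by Ccl5, with Cxcl1 and Cxcl2 also reaching it, and B lymphocyte-like cells had Ccl4 alone. Endothelial-like cells had 4 such members in APOE2 (Ccl21a, Cxcl12, Cxcl1 and Cxcl2).

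**Figure D1:**
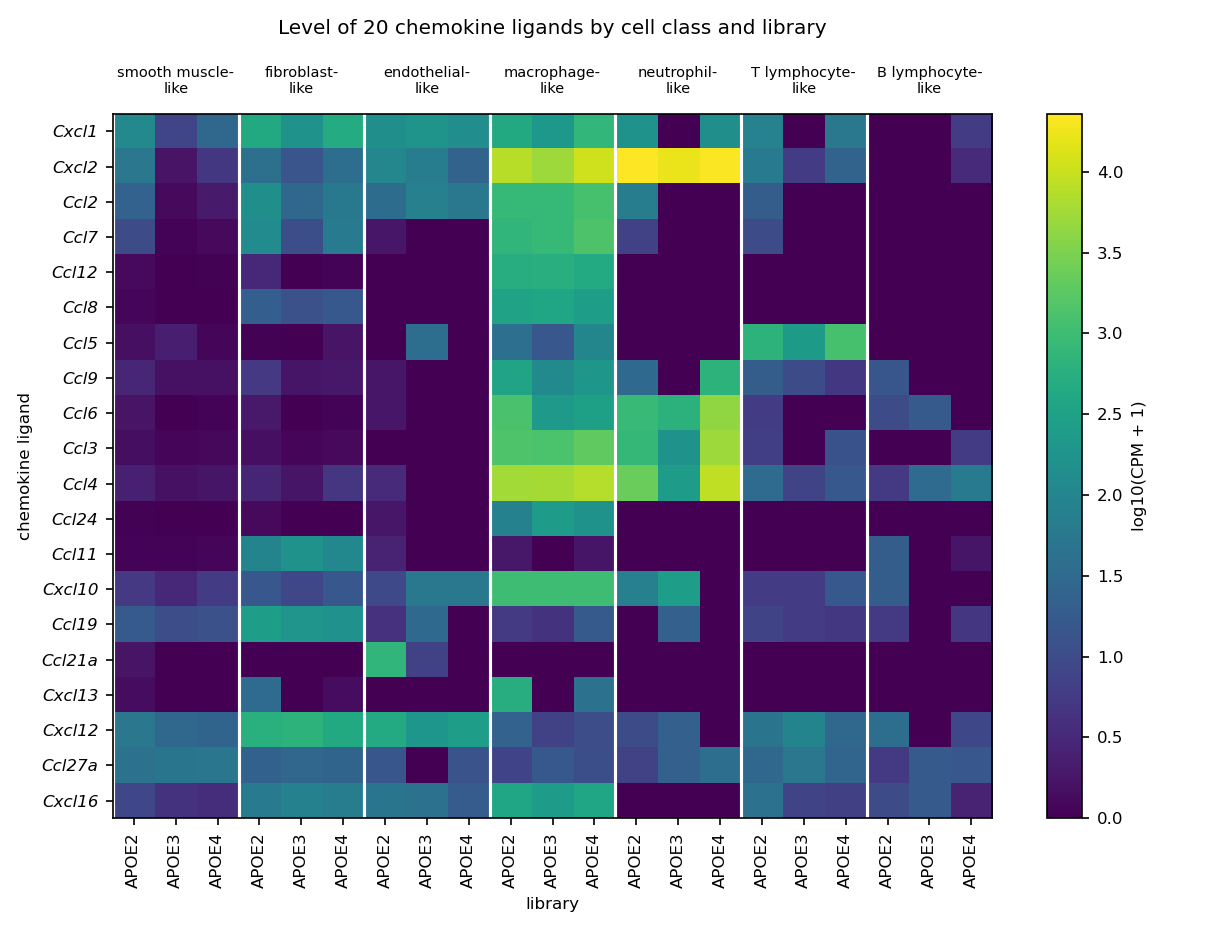
Level of the 20 chemokine members that reached the level for naming (y axis) in each named cell class and genotype library (x axis), with colour as log10 of CPM plus 1. Cxcl2 reached 22875 CPM in neutrophil-like cells of APOE2, and Cxcl13 in macrophage-like cells was at 527 CPM in APOE2 against 0 in APOE3.

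Between genotypes, the APOE2 library stood above APOE3 by 2-fold or more for most chemokines compared in smooth muscle-like cells, and for fewer than that in fibroblast-like and macrophage-like cells. A member was compared where it had at least 50 UMIs in both libraries together and was counted as different at 2-fold or more. The same rule was applied to all genes. A member could reach the minimum through 1 library alone and was then bound to be counted as different. In smooth muscle-like cells this held for Ccl21a (83 UMIs in APOE2 and 0 in APOE3) and Cxcl3 (73 and 1), among others. In smooth muscle-like cells 15 of 19 members differed between APOE2 and APOE3, 14 higher and 1 lower in APOE2, against 4.89% of all genes compared, and the members' median log2 ratio was 1.36 beside 0.04 over all genes. From APOE3 to APOE4, 6 of 14 differed in these cells (5 higher, 1 lower in APOE4) against 4.32% of all genes, with a median of 0.13 beside -0.08. From APOE2 to APOE4, 13 of 20 were lower in APOE4 and none was higher, against 7.58% of all genes in either direction, with a median of -1.41 beside -0.11. The order APOE2, then APOE4, then APOE3 thus held for Cxcl1, Cxcl2, Cxcl5, Ccl2 and Ccl7 in this class. The 3 contrasts share libraries, so they are not independent of each other.

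In fibroblast-like cells 8 of 17 members were higher in APOE2 than in APOE3 and none was lower, against 3.31% of all genes, and the members' median was 0.98 beside -0.01. Cxcl1, Cxcl2 and Ccl7 were the 3 of 13 members higher in APOE4 than in APOE3 there, against 2.78% of all genes (median 0.47 beside -0.10). Between APOE4 and APOE2, 7 of 18 differed, 6 lower and 1 higher in APOE4, against 4.72% of all genes (median -0.23 beside -0.07). In macrophage-like cells 8 of 17 differed between APOE2 and APOE3, 7 higher and 1 lower in APOE2, against 6.11% of all genes (median 0.52 beside -0.03). Cxcl1, Cxcl2, Cxcl13 and Ccl5 were the 4 of 15 members higher in APOE4 than in APOE3, against 4.72% of all genes (median 0.55 beside -0.03). Between APOE4 and APOE2, 5 of 17 differed, 2 higher and 3 lower in APOE4, against 6.29% of all genes (median 0.04 beside -0.01).

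Smaller classes allowed only the contrast of APOE4 with APOE2, since APOE3 gave fewer than 30 cells of each. In T lymphocyte-like cells 5 of 9 members differed, 1 higher and 4 lower in APOE4, against 7.38% of all genes (median -0.78 beside -0.08). Ccl4 was the only member with enough UMIs in B lymphocyte-like cells and was higher in APOE4, where 16.9% of all genes differed. In endothelial-like cells 3 of 6 were lower in APOE4 (Ccl21a, Cxcl2 and Cxcl16) and none was higher, against 14.5% of all genes (median -1.13 beside -0.07).

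**Figure D2:**
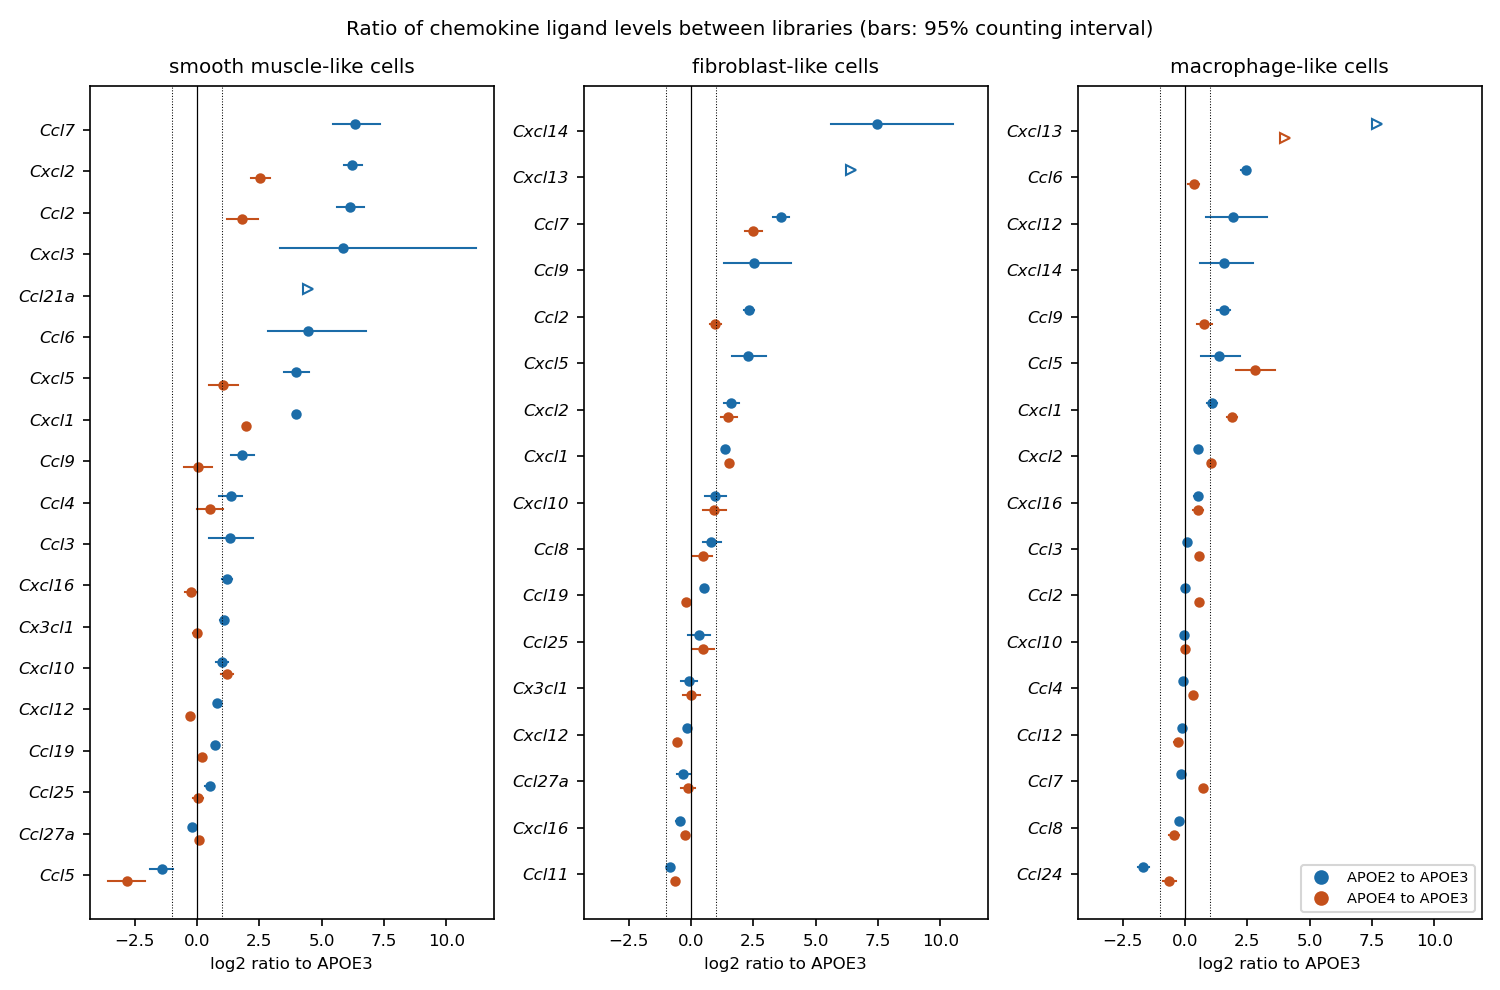
Log2 ratio of the CPM of each chemokine member to APOE3 (x axis), for APOE2 in blue and APOE4 in orange, in the smooth muscle-like, fibroblast-like and macrophage-like cells. Bars are exact 95% intervals for counting error, dotted lines mark 2-fold, and open triangles are lower bounds for members with no UMI in APOE3. In smooth muscle-like cells Cxcl2, Ccl2 and Ccl7 lie at 6.24, 6.14 and 6.32 from APOE3 to APOE2, while Ccl27a lies at -0.20.

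Cxcl1, Cxcl2, Cxcl3, Cxcl5 and Cxcl15 are the neutrophil-recruiting CXC members, ligands of Cxcr2 for the most part. Their summed level was highest in the neutrophil-like and macrophage-like cells, where Cxcl2 made up nearly all of it. Cxcl2 in macrophage-like cells stood at 7764 CPM (7683 to 7846) for APOE2, 5331 (5201 to 5464) for APOE3 and 10972 (10797 to 11149) for APOE4. APOE4 was the highest and APOE3 the lowest, with a log2 ratio of 1.04, interval 1.00 to 1.08 between them. In neutrophil-like cells Cxcl2 was at 22875 CPM (22361 to 23397) for APOE2, 17081 (15940.5 to 18281) for APOE3 and 21169.5 (19476 to 22971) for APOE4, the largest level of any member in any class, from 56, 10 and 7 cells. Cxcl1 in macrophage-like cells was at 445 CPM for APOE2, 209.8 for APOE3 and 778 for APOE4, again lowest in APOE3 and highest in APOE4.

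Outside the myeloid cells Cxcl1 exceeded Cxcl2. Cxcl1 in fibroblast-like cells was at 437 CPM (426 to 447) for APOE2, 168 (159 to 177) for APOE3 and 485 (472 to 499) for APOE4. APOE2 and APOE4 lay close together and both lay above APOE3, with log2 ratios to APOE3 of 1.38, interval 1.29 to 1.46 and 1.53, interval 1.44 to 1.62. In the same cells Cxcl2 was at 40.1 CPM for APOE2, 13.1 for APOE3 and 37.2 for APOE4 and followed the same order of APOE3 below the other libraries. Cxcl5, also a Cxcr2 ligand, was at 13 CPM for APOE2, 2.62 for APOE3 and 1.67 for APOE4 there and was high in APOE2 alone. After each cell was thinned to 1000 UMIs, 13.9% for APOE2, 7.10% for APOE3 and 18.6% for APOE4 of fibroblast-like cells held a Cxcl1 UMI (32.2% for APOE2, 22.2% for APOE3 and 45.4% for APOE4 without thinning, at median depths of 10496.5, 11136.0 and 9700.0 UMIs). The same share in B lymphocyte-like cells, which are not known for making Cxcl1, was 0 of 32, 0 of 10 and 0 of 271 cells thinned, which allows a share of up to 1.11% in APOE4 (0% for APOE2, 0% for APOE3 and 1.48% for APOE4 without thinning, at median depths of 4104.5, 4673.5 and 3761.0 UMIs).

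Several neutrophil-recruiting and monocyte-recruiting members were at least 2-fold apart between libraries in smooth muscle-like cells. Cxcl1 stood at 111 CPM (109 to 113) for APOE2, 7.09 (6.57 to 7.65) for APOE3 and 28.0 (27.0 to 29.1) for APOE4 in this class. APOE2 was 15.7-fold above APOE3 (log2 3.97, interval 3.86 to 4.08) and 3.96-fold above APOE4. Cxcl2 was at 53.2 CPM (51.9 to 54.5) for APOE2, 0.704 (0.545 to 0.894) for APOE3 and 4.11 (3.73 to 4.53) for APOE4, 75.6-fold higher in APOE2 than in APOE3 (log2 6.24, interval 5.89 to 6.61). Cxcl5 was at 6.13 CPM for APOE2, 0.389 for APOE3 and 0.809 for APOE4, with a log2 ratio of 3.98, interval 3.50 to 4.50 from APOE3 to APOE2. Cxcl3 had 73, 1 and 0 UMIs. APOE2 was thus the highest library for all 4 of these neighbouring genes, and for Cxcl1, Cxcl2 and Cxcl5 APOE4 lay between APOE2 and APOE3. The fifth gene of the run, Cxcl15, had 1, 5 and 9 UMIs.

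The share of smooth muscle-like cells that held Cxcl1 differed far less between libraries than its level did. After thinning to 1000 UMIs 2.44% for APOE2, 0.594% for APOE3 and 2.12% for APOE4 of the cells held a Cxcl1 UMI, so APOE2 and APOE4 were nearly alike (intervals 2.10 to 2.82 and 1.76 to 2.54) although the CPM of APOE2 was 3.96 times that of APOE4. Without thinning the shares were 7.99% for APOE2, 3.80% for APOE3 and 11.8% for APOE4. In APOE2 50% of the Cxcl1 UMIs of the class came from 20 cells, against 83 cells in APOE4 and 25 in APOE3. For Cxcl2 and Ccl2 in APOE2 the same number was 11 and 4 cells of 7312. The APOE2 level therefore sat in few cells with many UMIs each, up to 741 Cxcl1 UMIs in a cell.

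Most of those cells belonged to cluster 6, a smooth muscle-like cluster led by Spp1, Vcam1, Lcn2, Timp1 and, although no member was used for the clustering, Cxcl1 with 622, 273 and 355 cells in the 3 libraries. In APOE2 this cluster was 8.51% of the smooth muscle-like cells and carried 84.7% of the class's Cxcl1, 94.8% of its Cxcl2 and 96.3% of its Ccl2. In APOE3 and APOE4 the cluster carried 18.4% and 18.8% of Cxcl1. Within cluster 6, Cxcl1 was at 854 CPM for APOE2, 17.5 for APOE3 and 75.0 for APOE4. Cxcl2 was at 458 CPM for APOE2, 1.27 for APOE3 and 18.5 for APOE4 and Ccl2 at 194 CPM for APOE2, 2.40 for APOE3 and 13.1 for APOE4. The cluster was thus present in all 3 libraries, and its chemokine level set APOE2 apart. Its place in the smooth muscle-like class depended on the clustering. At Louvain resolutions of 0.4 and 1.6, in place of 0.8, a cluster led by Spp1, Vcam1 and Lcn2 kept 1 and 2 of the 10 smooth muscle markers. It stayed unnamed there and outside the class. Such a cluster kept 10 with the members among the clustering features and 8 without integration. Outside cluster 6 Cxcl1 was at 19.1 CPM for APOE2, 6.25 for APOE3 and 24.5 for APOE4, where APOE4 and not APOE2 was the highest. Cxcl2 outside it was at 3.09 CPM for APOE2, 0.658 for APOE3 and 3.02 for APOE4, with APOE2 and APOE4 alike. Other members differed in the cluster as well. There Cxcl16 was at 40.5 CPM for APOE2, 4.95 for APOE3 and 6.32 for APOE4, and Ccl21a had 76, 0 and 0 UMIs. Cxcl12 was at 195 CPM for APOE2, 62.2 for APOE3 and 39.6 for APOE4, Cx3cl1 at 56.7 CPM for APOE2, 20.9 for APOE3 and 16.7 for APOE4 and Ccl19 at 64.5 CPM for APOE2, 10.5 for APOE3 and 18.0 for APOE4, while Ccl27a was at 35.9 CPM for APOE2, 48.6 for APOE3 and 54.4 for APOE4 and not raised in APOE2. Cxcl5 had 0 UMIs in cluster 6 in APOE3 and APOE4 and 48.6 CPM in APOE2. In those libraries Cxcl5 came mostly from cluster 11, led by Adamtsl1 and Mdga2, where it was at 18.0 CPM for APOE2, 10.8 for APOE3 and 15.6 for APOE4. Clusters 0, 1, 2, 3 and 5 held Cxcl5 at 0.167 CPM or less in every library.

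**Figure D3:**
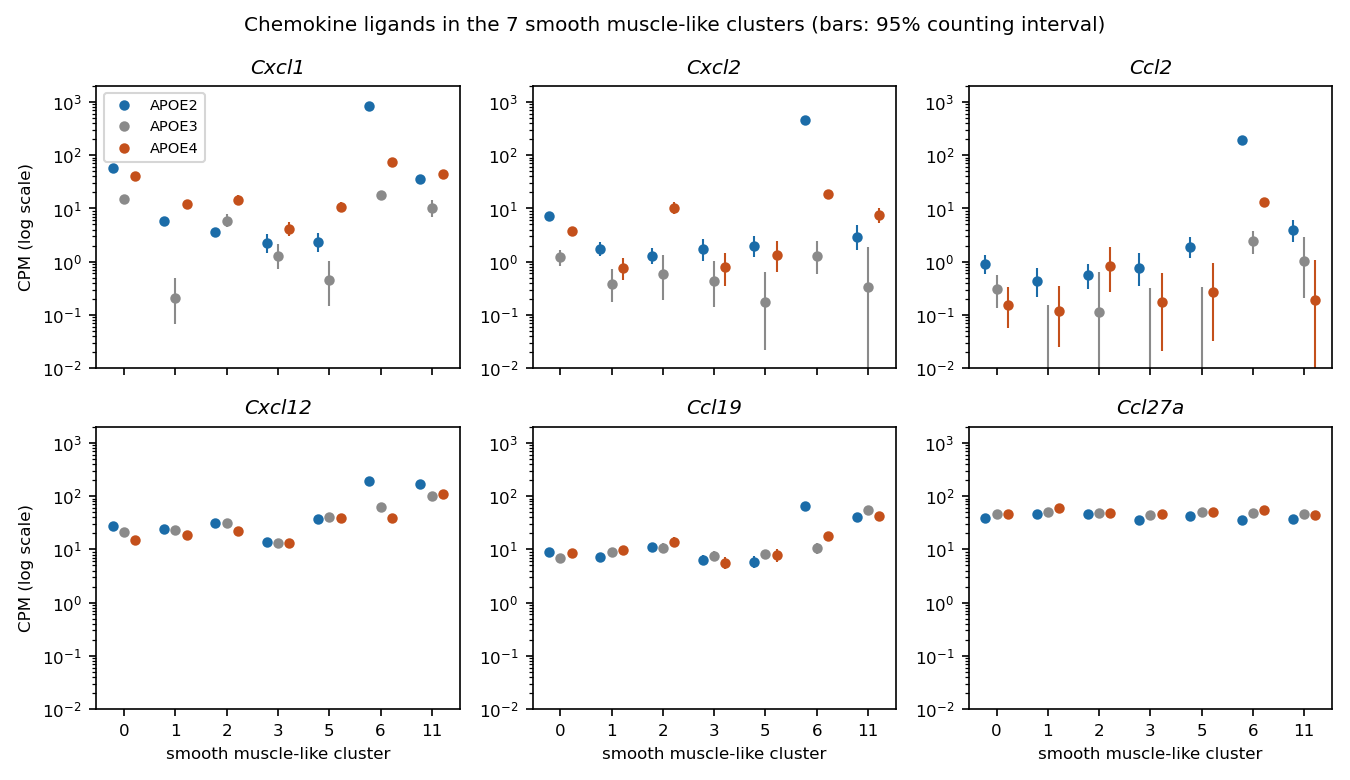
CPM (y axis, log scale) of Cxcl1, Cxcl2, Ccl2, Cxcl12, Ccl19 and Ccl27a in the 7 smooth muscle-like clusters (x axis), with 1 point per library and exact Poisson 95% intervals as bars. A bar without a point is a level of 0. Cluster 6 of APOE2 stands apart for Cxcl1 (854 CPM), Cxcl2 (458 CPM) and Ccl2 (194 CPM), while Ccl27a is level over clusters and libraries.

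The cells of APOE2 that carried these members carried several of them. With at least 5 UMIs as the limit, 212 smooth muscle-like cells of APOE2 held Cxcl1 and 89 held Cxcl2, and 80 held both, which is 37.7% of the Cxcl1 cells and 89.9% of the Cxcl2 cells. Ccl2 was held by 50 cells, of which 42 (84%) also held Cxcl1. Of the 89 Cxcl2 cells, 0 held 5 UMIs of Ccl4, the member that stands beside Cxcl2 in macrophages. Per UMI of Ccl4 there were 37.3 UMIs of Cxcl2 in smooth muscle-like cells of APOE2, against 1.38 in its macrophage-like cells. In APOE3 the same ratio was 1.26 in smooth muscle-like cells (from 67 and 53 UMIs) and 0.908 in macrophage-like cells. Neutrophil-like cells also held more Cxcl2 than Ccl4, at a ratio of 10.0 in APOE2, 69.4 in APOE3 (from 833 and 12 UMIs) and 2.38 in APOE4. In cluster 6 the 10 macrophage markers summed to 10.6, 5.51 and 9.55 CPM in APOE2, APOE3 and APOE4. The 7 neutrophil markers summed to 999.6, 1.13 and 0.562 CPM, of which Lcn2, a secreted iron-scavenging protein, was 958, 0 and 0 CPM. Other neutrophil markers were far lower but also highest in APOE2. S100a8 was at 14.1, 0.565 and 0 CPM, S100a9 at 18.6, 0.424 and 0.421 CPM and Retnlg at 6.28, 0 and 0 CPM. Csf3r, the neutrophil growth factor receptor, was at 1.36, 0 and 0 CPM. The smooth muscle markers summed to 26813, 40250 and 41290.5 CPM and the fibroblast markers to 7996, 3184 and 2902 CPM, so in APOE2 the chemokine level moved together with fewer smooth muscle and more fibroblast transcripts and with Lcn2, and their part in the result was not tested. With the cluster left out, the log2 ratio of Cxcl1 from APOE2 to APOE4 turned to 0.36, and that from APOE3 to APOE2 was 1.61. The members 2-fold apart were then 10 for APOE2 with APOE3, 5 for APOE4 with APOE3 and 5 for APOE4 with APOE2. With the cluster they were 15, 6 and 13. The share of all genes is not given for the cells without the cluster, so these counts show only the change in number. Cxcl5 turned to -3.09 from APOE3 to APOE2 when the cells were clustered at a finer resolution.

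Ccl2, Ccl7, Ccl8 and Ccl12 are the monocyte-recruiting members, ligands of Ccr2 except for Ccl8, whose main receptor in mice is Ccr8. All 4 were carried by macrophage-like cells. Ccl2 was at 838 CPM (812 to 866) for APOE2, 837 (785 to 890.3) for APOE3 and 1253 (1194 to 1313) for APOE4 there and Ccl7 at 736 CPM for APOE2, 818 for APOE3 and 1372 for APOE4. APOE4 was the highest library for both, by less than 2-fold over either of the others. Ccl12 was at 510.3 CPM for APOE2, 550.1 for APOE3 and 458 for APOE4 and Ccl8 at 318 CPM for APOE2, 369.8 for APOE3 and 272 for APOE4, and for these APOE4 was the lowest, again by less than 2-fold. Within single sub-clusters of these cells the libraries lay further apart, and the order was not always that of the class. For Ccl2 and Ccl7 APOE3 was the highest in sub-cluster 5, with Ccl2 at 991 CPM for APOE2, 1785 for APOE3 and 1278 for APOE4. APOE2 was the highest for both in sub-cluster 4, and APOE4 in sub-clusters 1 and 3. In sub-cluster 5 Ccl8 was at 175 CPM for APOE2, 897 for APOE3 and 13.8 for APOE4 and Ccl12 at 1558 CPM for APOE2, 1084 for APOE3 and 454 for APOE4, and in sub-cluster 0 Ccl7 was at 555 CPM in APOE2 and 57.3 in APOE3. The Ccl8 level of APOE3 in sub-cluster 5 came from 284 UMIs, of which 1 cell held 275.

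In stromal cells Ccl2 and Ccl7 differed more. Ccl2 in fibroblast-like cells was at 145 CPM (139 to 151) for APOE2, 29.0 (25.4 to 32.9) for APOE3 and 57.0 (52.4 to 61.8) for APOE4, 5.00-fold higher in APOE2 than in APOE3 (log2 2.32, interval 2.13 to 2.52). Ccl7 was at 125 CPM (119.6 to 131) for APOE2, 10.4 (8.25 to 12.8) for APOE3 and 58.9 (54.3 to 63.8) for APOE4, with a log2 ratio of 3.60, interval 3.28 to 3.93 from APOE3 to APOE2 and 2.51, interval 2.17 to 2.86 from APOE3 to APOE4. For both the order was APOE2, APOE4, APOE3. In smooth muscle-like cells Ccl2 was at 22.3 CPM for APOE2, 0.315 for APOE3 (30 UMIs) and 1.11 for APOE4. Ccl7 was at 9.26 CPM for APOE2, 0.116 for APOE3 and 0.286 for APOE4 there. APOE2 was 70.6-fold and 80.1-fold above APOE3 for Ccl2 and Ccl7. Cluster 6 held 96.3% of these Ccl2 UMIs and 93.9% of these Ccl7 UMIs in APOE2. Outside it the log2 ratio of Ccl2 from APOE3 to APOE2 was 2.65, interval 1.81 to 3.61 (99 UMIs in APOE2 and 13 in APOE3). That of Ccl7 was 3.23, interval 2.03 to 4.72 (68 and 6 UMIs). Ccl8 in fibroblast-like cells, at 19.2 CPM for APOE2, 10.9 for APOE3 and 15.0 for APOE4, did not reach 2-fold in any contrast.

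The fibroblast-like class joined cluster 4, led by Fmod and Inmt (649, 459 and 740 cells in APOE2, APOE3 and APOE4), and cluster 10, led by Opcml, Sdk1 and Dpp4 (539, 175 and 193 cells), and the clusters differed in their chemokines. In cluster 10 Cxcl1 was at 721 CPM for APOE2, 205 for APOE3 and 631 for APOE4, against 138 CPM for APOE2, 151 for APOE3 and 438 for APOE4 in cluster 4. Ccl2 was at 228 CPM for APOE2, 60.2 for APOE3 and 133 for APOE4 in cluster 10, against 57.9 CPM for APOE2, 14.2 for APOE3 and 32.0 for APOE4 in cluster 4. Ccl7 was at 209.9 CPM for APOE2, 18.3 for APOE3 and 116 for APOE4 in cluster 10, against 36.4 CPM for APOE2, 6.62 for APOE3 and 40.1 for APOE4 in cluster 4. In both clusters APOE2 was the highest library for Ccl2 and APOE3 the lowest. In APOE2 50% of the Ccl2 UMIs of fibroblast-like cells came from 9 cells. For Ccl7 APOE4 lay just above APOE2 in cluster 4. For Cxcl1 the clusters differed, since in cluster 4 APOE2 lay just below APOE3 while APOE4 lay above both. Markers of other cells moved with these levels in part. In fibroblast-like cells the 10 macrophage markers summed to 31.0 CPM for APOE2, 9.49 for APOE3 and 16.2 for APOE4 (Adgre1 at 0 in APOE3 and APOE4), the 7 neutrophil markers to 175 CPM for APOE2, 4.49 for APOE3 and 5.30 for APOE4 (Mmp9 at 0 in APOE2 and APOE3) and the 6 erythroid markers to 428 CPM for APOE2, 10.5 for APOE3 and 333 for APOE4. The immediate early and dissociation genes (14 listed, among them Fos, Jun, Atf3 and the heat shock gene Hspa1a) summed to 8208, 9478 and 17332 CPM in APOE2, APOE3 and APOE4, with 7 of 14 at least 2-fold higher in APOE4 than in APOE3. The same list in smooth muscle-like cells summed to 12443, 15656 and 21850.1 CPM. In both classes the list was thus highest in APOE4, where Cxcl1 of fibroblast-like cells was also the highest, and lowest in APOE2. In macrophage-like cells the list summed to 20949 CPM for APOE2, 32067 for APOE3 and 25662.5 for APOE4, so APOE3 was the highest there. The part of the digestion in the chemokine levels was not tested.

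Ccl3, Ccl4, Ccl5, Ccl6 and Ccl9 act on monocytes and T lymphocytes, Ccl6 and Ccl9 through Ccr1. Ccl4 and Cxcl2 were the most abundant members of the macrophage-like cells, with Ccl4 above Cxcl2 in APOE3. Ccl4 was at 5612 CPM (5543 to 5682) for APOE2, 5869 (5732 to 6009) for APOE3 and 7385 (7242 to 7531) for APOE4 and Ccl3 at 1425 CPM for APOE2, 1327 for APOE3 and 1944 for APOE4. Both were highest in APOE4 and neither reached 2-fold between any libraries. Ccl6 behaved otherwise, at 1257 CPM (1224 to 1290.0) for APOE2, 231 (204 to 259.8) for APOE3 and 296 (268 to 326) for APOE4 in macrophage-like cells, and was 5.44-fold higher in APOE2 than in APOE3 (log2 2.44, interval 2.27 to 2.62) and 4.24-fold higher than in APOE4. Its neighbour Ccl9 was at 347 CPM for APOE2, 118 for APOE3 and 201 for APOE4, also highest in APOE2 (log2 1.56, interval 1.31 to 1.82 over APOE3).

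Ccl5, made by activated T lymphocytes and natural killer cells, held 80.5% of its UMIs in T lymphocyte-like cells. In that class Ccl5 was at 665 CPM (624 to 708) for APOE2, 233 (189 to 283) for APOE3 and 1229 (1168 to 1294) for APOE4, with APOE4 1.85-fold above APOE2. The APOE3 level came from 100 UMIs in 23 cells, 96 of them in 1 cell. The 7 natural killer markers summed to 282 CPM for APOE2, 67.5 for APOE3 and 911 for APOE4 in the same cells, in the same order as Ccl5, and their part in the result was not tested. Ccl5 in smooth muscle-like cells, with 58, 123 and 19 UMIs, was the member of that class that was lower in APOE2 than in APOE3 (log2 -1.42, interval -1.89 to -0.96). In APOE3 only 5 of these cells held Ccl5 and 1 of them held 97 of the 123 UMIs. Over 14 alternatives the log2 ratio ran from -3.63 to 1.28. The natural killer markers had 7, 81 and 25 UMIs there, and so were highest in APOE3 as well. Xcl1, which attracts cross-presenting dendritic cells, had 14, 0 and 49 UMIs, all 63 of them in T lymphocyte-like cells (log2 2.11, interval 1.23 to 3.08 from APOE2 to APOE4). Ccl5 in macrophage-like cells was low, at 37.4 CPM for APOE2, 14.3 for APOE3 and 99.7 for APOE4.

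Ccl9 in fibroblast-like cells was at 4.28 CPM for APOE2, 0.749 for APOE3 and 0.884 for APOE4 and Ccl4 at 1.79 CPM for APOE2, 0.749 for APOE3 and 3.83 for APOE4, with the first past 2-fold above APOE3 in APOE2 and the second past 2-fold above APOE2 in APOE4. Traces of the macrophage members in smooth muscle-like cells were also highest in APOE2. Ccl4 was at 1.43 CPM for APOE2, 0.557 for APOE3 and 0.799 for APOE4 there, Ccl3 at 0.425 CPM for APOE2, 0.168 for APOE3 and 0.247 for APOE4, Ccl9 at 1.94 CPM for APOE2, 0.546 for APOE3 and 0.562 for APOE4 and Ccl6 at 0.692 CPM for APOE2, 0.0315 for APOE3 and 0.0987 for APOE4, and the 10 macrophage markers summed to 11.2 CPM for APOE2, 3.30 for APOE3 and 6.05 for APOE4, whose part in these levels was not tested. Of the T lymphocyte-like cells, those of APOE2 held more Cxcl2 (59.9 CPM in APOE2 and 23.2 in APOE4) and Ccl4 (33.0 and 14.9 CPM), beside 7 neutrophil markers at a sum of 271 CPM for APOE2, 2.33 for APOE3 and 0.828 for APOE4.

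In neutrophil-like cells Ccl3, Ccl4 and Ccl6 stood beside Cxcl2. Ccl4 was at 2286 CPM in APOE2 (753 UMIs), 246 in APOE3 (12 UMIs) and 8894 in APOE4 (242 UMIs). Ccl3 was at 789 CPM for APOE2, 164 for APOE3 and 5219 for APOE4 and Ccl6 at 905 CPM for APOE2, 636 for APOE3 and 4263 for APOE4. APOE4 was the highest for all 3, but its level came from 7 cells and no ratio was taken in classes under 30 cells. For each member most of the UMIs in APOE4 lay in 1 cell, with 203 of 242 for Ccl4, 113 of 142 for Ccl3 and 101 of 116 for Ccl6. In B lymphocyte-like cells Ccl4 had 1 UMI in APOE2, 2 in APOE3 and 74 in APOE4, where it was at 58.3 CPM, and no other member reached the level for naming. The 5 plasma cell markers summed to 10243 CPM for APOE2, 159.7 for APOE3 and 258 for APOE4 and the 10 macrophage markers to 221 CPM for APOE2, 208 for APOE3 and 12.6 for APOE4 in this class, and their part in the result was not tested.

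The macrophage-like cells split into 6 sub-clusters, made without the chemokine members, which separated the members further. Sub-cluster 3 (76, 19 and 60 cells in APOE2, APOE3 and APOE4) carried all 6 markers of resident macrophages, among them Lyve1 and Folr2. Sub-cluster 2 (61, 3 and 0 cells) carried all 7 markers of foam macrophages, among them Spp1 and Gpnmb, and since nearly all its cells were of APOE2 it cannot be told apart from that library. Sub-cluster 5 (37, 29 and 30 cells) led with Mir155hg and Nlrp3, and sub-cluster 1 led with mitochondrial genes. Sub-clusters 0, 1 and 4 carried smooth muscle transcripts, with marker sums of 13465, 15771 and 14527 CPM. In the resident-like sub-cluster Ccl6 was at 3980.1 CPM for APOE2, 509 for APOE3 and 539.7 for APOE4, Ccl9 at 865 CPM for APOE2, 183 for APOE3 and 299 for APOE4 and Ccl8 at 1022 CPM for APOE2, 628 for APOE3 and 529 for APOE4. APOE2 exceeded the other libraries for Ccl6 and Ccl9 within this sub-cluster. The order was another in sub-cluster 0 for Ccl6, at 74.3 CPM in APOE2 and 115 in APOE3, and in sub-cluster 2 for Ccl9, at 310.1 and 454 CPM (3 cells in APOE3). Ccl4 was highest in sub-clusters 0 and 5, at 11262 and 11145 CPM over all libraries, and Cxcl2 in sub-cluster 5, at 13787 CPM for APOE2, 10327 for APOE3 and 20516 for APOE4. Cxcl1 was at 1168 CPM in the foam-like cells of APOE2 and at 636 CPM for APOE2, 161 for APOE3 and 1283 for APOE4 in sub-cluster 5, where APOE4 was the highest. Cxcl12 and Cxcl14, at 22.5 CPM for APOE2, 5.90 for APOE3 and 9.53 for APOE4 and at 22.7 CPM for APOE2, 7.58 for APOE3 and 17.6 for APOE4 in macrophage-like cells, were past 2-fold between APOE2 and APOE3 at these low levels, beside smooth muscle markers that summed to 6369 CPM for APOE2, 12115 for APOE3 and 7914 for APOE4. The Ccl5 of macrophage-like cells in APOE4 lay mostly in sub-cluster 5 as well, at 44.3 CPM for APOE2, 15.8 for APOE3 and 332 for APOE4, and 1 macrophage-like cell of APOE4 held 96 of its 136 UMIs.

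**Figure D4:**
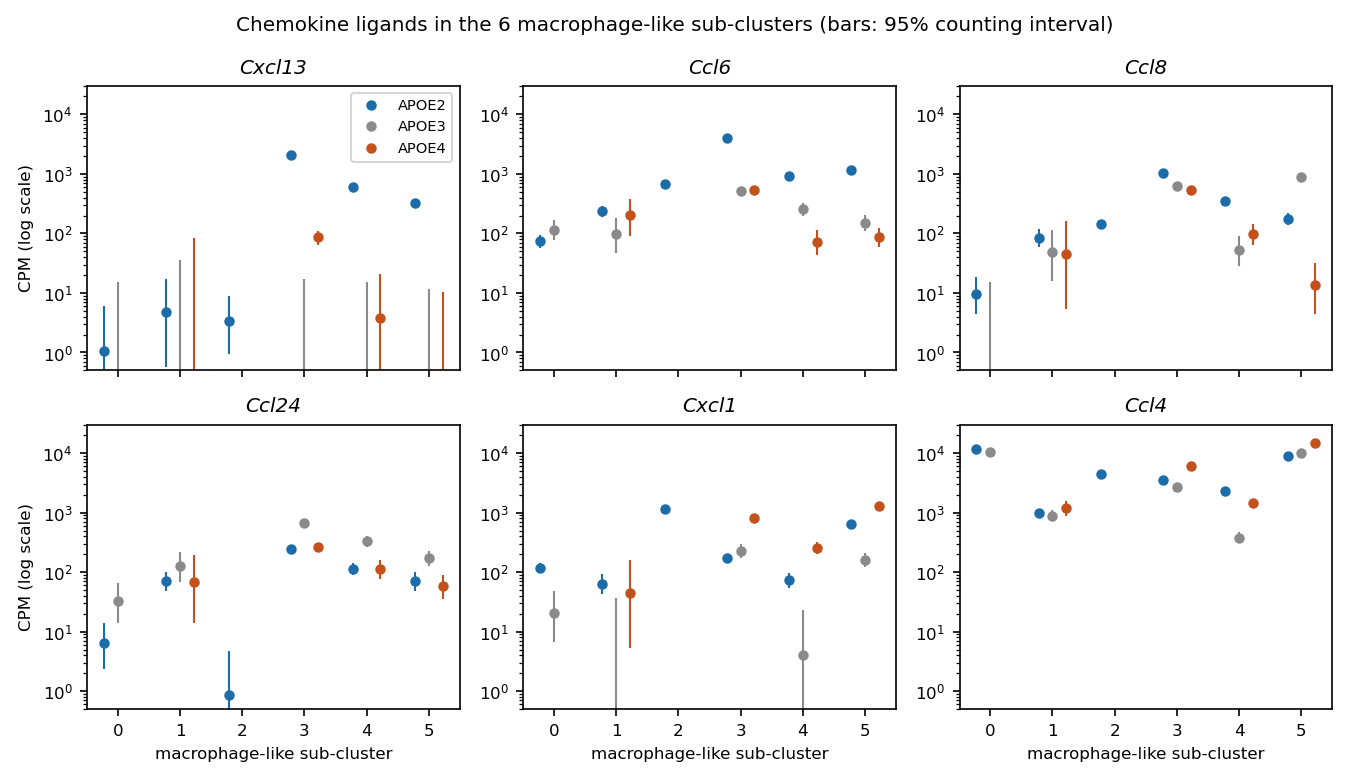
CPM (y axis, log scale) of Cxcl13, Ccl6, Ccl8, Ccl24, Cxcl1 and Ccl4 in the 6 sub-clusters of macrophage-like cells (x axis), by library, with exact Poisson 95% intervals as bars. Sub-clusters with fewer than 10 cells in a library have no point, and a bar without a point is a level of 0. In the resident-like sub-cluster 3, Cxcl13 lies at 2050.0 CPM in APOE2 and 86.0 in APOE4 with no UMI in APOE3, and Ccl24 is the highest in APOE3 at 669 CPM.

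Ccl11, Ccl24 and Ccl26 are eotaxins, which attract eosinophils through Ccr3. Ccl11 was a fibroblast member, with 86.0% of its UMIs in fibroblast-like cells, at 91.9 CPM (87.1 to 97.0) for APOE2, 164 (155 to 173) for APOE3 and 106 (99.4 to 112) for APOE4. APOE3 was the highest, by less than 2-fold over APOE2 and APOE4. Ccl24 was a macrophage member at 80.4 CPM (72.3 to 89.1) for APOE2, 254 (227 to 285) for APOE3 and 166 (145 to 189) for APOE4. It was the only member called lower in APOE2 than in APOE3 in these cells (log2 -1.66, interval -1.89 to -1.44), and APOE4 lay between. In the resident-like sub-cluster Ccl24 was at 246 CPM for APOE2, 669 for APOE3 and 269 for APOE4, so APOE3 was the highest there too while APOE2 and APOE4 lay close together. Ccl26 had 18 UMIs in all.

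Cxcl9 and Cxcl10 are induced by interferon and attract T lymphocytes through Cxcr3. Cxcl11, which belongs with them, was not among the genes of the tables. Cxcl10 in macrophage-like cells was at 995 CPM (966 to 1025) for APOE2, 1013 (956 to 1072) for APOE3 and 1019.5 (967 to 1075) for APOE4. Over the whole class the 3 libraries lay within 1.02-fold of each other, the smallest spread among its abundant members. Within single sub-clusters they lay further apart. In sub-cluster 4 Cxcl10 was at 229 CPM for APOE2, 8.16 for APOE3 and 621 for APOE4. In sub-cluster 3 it was at 412 CPM for APOE2, 326 for APOE3 and 924 for APOE4. The order was another in sub-cluster 1, at 455 CPM for APOE2, 197 for APOE3 and 22.3 for APOE4. Sub-cluster 5 was nearly level, at 1800 CPM for APOE2, 1849 for APOE3 and 1682 for APOE4. Cxcl10 was far lower in smooth muscle-like cells, at 4.22 CPM for APOE2, 2.09 for APOE3 and 4.87 for APOE4, and both APOE2 and APOE4 lay just over 2-fold above APOE3 (log2 1.01, interval 0.77 to 1.26 and 1.22, interval 0.98 to 1.47). Cxcl9 had 88 UMIs in all and reached the level for naming in no class.

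Cxcl12, which binds Cxcr4 and Ackr3 and retains blood-forming cells in their niche, was the leading member of fibroblast-like cells in APOE2 and APOE3. In APOE4 Cxcl1 stood above it, with 4942 UMIs against 4487. Cxcl12 was at 576 CPM (564 to 589) for APOE2, 647 (629 to 665) for APOE3 and 441 (428 to 454) for APOE4 in fibroblast-like cells. A Cxcl12 UMI was found in 79.2% for APOE2, 83.8% for APOE3 and 79.8% for APOE4 of these cells, and in 33.8% for APOE2, 37.4% for APOE3 and 28.6% for APOE4 after thinning to 1000 UMIs, so its level was spread over more cells of the class than that of Cxcl1. The thinned share in B lymphocyte-like cells was 0% for APOE2, 0% for APOE3 and 0.738% for APOE4. APOE4 was the lowest, by less than 2-fold. In endothelial-like cells Cxcl12 was at 453 CPM for APOE2, 194 for APOE3 and 262 for APOE4 and in smooth muscle-like cells at 51.6 CPM for APOE2, 29.3 for APOE3 and 24.4 for APOE4. APOE2 was the highest in both, and in smooth muscle-like cells APOE4 was 2.12-fold below it. That ratio was past 2-fold in 8 of 14 alternatives. Cluster 6 held 41.6% of the Cxcl12 UMIs of smooth muscle-like cells in APOE2. Outside it Cxcl12 was at 33.9 CPM for APOE2, 26.6 for APOE3 and 23.3 for APOE4, a log2 ratio of -0.54 from APOE2 to APOE4. Ccl19, a Ccr7 ligand that guides T lymphocytes and dendritic cells, was at 267 CPM (258 to 275) for APOE2, 184 (175 to 194) for APOE3 and 159.7 (152 to 168) for APOE4 in fibroblast-like cells and at 16.1 CPM for APOE2, 9.74 for APOE3 and 11.1 for APOE4 in smooth muscle-like cells. APOE2 was the highest in both classes, by less than 2-fold. In smooth muscle-like cells outside cluster 6 Ccl19 was at 10.1 CPM for APOE2, 9.68 for APOE3 and 10.6 for APOE4, with APOE4 the highest. A second identifier with the symbol Ccl19 had no UMI, and reads of near-identical copies cannot be assigned with certainty.

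Cxcl13, the Cxcr5 ligand that organizes B lymphocytes in lymphoid tissue, differed most between libraries among the macrophage members. It had 2367 UMIs in macrophage-like cells of APOE2 (527 CPM), 0 in APOE3 and 56 in APOE4 (41.0 CPM). Against a floor of 3 counts APOE2 was at least 209-fold and APOE4 at least 16.2-fold higher than APOE3. Of the UMIs in APOE2, 1848 lay in the resident-like sub-cluster, at 2050.0 CPM, against 0 in the 19 cells of APOE3 and 86.0 CPM in the 60 cells of APOE4. In APOE2 55 of the 419 macrophage-like cells held Cxcl13, and 7 of them held 50% of its UMIs. The level in APOE2 thus came from few cells, most of them resident-like. Cxcl13 in fibroblast-like cells, at 32.2 CPM for APOE2, 0 for APOE3 and 0.393 for APOE4, came for 50% from 1 cell of APOE2. The sums of erythroid markers also set the macrophage-like cells of APOE2 apart, at 1824 CPM for APOE2, 33.7 for APOE3 and 77.0 for APOE4, and their part in the result was not tested.

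Cxcl14, an epithelial and stromal member without a settled receptor, was at 44.3 CPM for APOE2, 0.250 for APOE3 and 0 for APOE4 in fibroblast-like cells, from 642, 2 and 0 UMIs. It was found in 39 cells of APOE2, and 4 of them held 50% of its UMIs. Against APOE4, with no UMI, APOE2 was at least 150.2-fold higher. Ccl21a, the Ccr7 ligand of lymphatic vessels, was at 737 CPM in endothelial-like cells of APOE2 with 1 UMI in APOE3 and 0 in APOE4. All 910 UMIs lay in 5 cells. These cells held the lymphatic markers Lyve1 (2659 CPM), Mmrn1 (1255 CPM) and Prox1 (384 CPM) and no Cxcl12, while the other 113 endothelial-like cells of APOE2 had Lyve1 at 2.57 CPM and Cxcl12 at 479 CPM. The Ccl21a of the endothelial-like cells in APOE2 was thus that of these 5 cells. Ccl21a in smooth muscle-like cells had 83 UMIs in APOE2 and 0 in APOE3 and APOE4, at least 22.0-fold higher in APOE2 than in APOE3. Of these UMIs 75 lay in 1 cell. The unnamed clusters with smooth muscle markers held 8 Ccl21a UMIs in APOE2 and 42 in APOE3, and the ratio was past 2-fold in 8 of 14 alternatives, down to a log2 of 0.68. Further identifiers named Ccl21a, Ccl21b and Ccl21c, near-identical copies, had no UMI, and reads of such copies cannot be assigned with certainty. Endothelial-like cells otherwise carried Cxcl1 at 148 CPM for APOE2, 176 for APOE3 and 137 for APOE4, with no 2-fold difference, and Cxcl2 at 104 CPM for APOE2, 66.9 for APOE3 and 23.8 for APOE4, where the level in APOE4 came from 4 UMIs. Ccl25, known from the thymus and gut, was at 5.74 CPM for APOE2, 4.03 for APOE3 and 4.13 for APOE4 in smooth muscle-like cells and did not reach 2-fold in any contrast.

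The membrane-bound members are Cx3cl1, the Cx3cr1 ligand, and Cxcl16, a Cxcr6 ligand that also binds oxidized lipoprotein. Cx3cl1 had 71.8% of its UMIs in smooth muscle-like cells, at 12.0 CPM for APOE2, 5.66 for APOE3 and 5.69 for APOE4. APOE2 was about 2-fold above APOE3 and APOE4 (log2 1.08, interval 0.94 to 1.23 over APOE3). Cluster 6 held 52.2% of these UMIs in APOE2, and outside it Cx3cl1 was at 6.44 CPM for APOE2, 4.44 for APOE3 and 4.86 for APOE4, a log2 ratio of 0.54 from APOE3 to APOE2. The ratios of Cx3cl1 and Cxcl16 to APOE3 were each past 2-fold in 10 of 14 alternatives. Cxcl16 was spread over classes, at 374 CPM for APOE2, 260.3 for APOE3 and 372 for APOE4 in macrophage-like, 60.1 CPM for APOE2, 81.6 for APOE3 and 70.1 for APOE4 in fibroblast-like and 7.59 CPM for APOE2, 3.28 for APOE3 and 2.79 for APOE4 in smooth muscle-like cells. Of these 3 classes Cxcl16 reached 2-fold in smooth muscle-like cells alone, with APOE2 the highest (log2 1.21, interval 1.02 to 1.40 over APOE3), and APOE2 was the lowest in fibroblast-like cells. Cluster 6 held 58.8% of the Cxcl16 UMIs of smooth muscle-like cells in APOE2. Outside it Cxcl16 was at 3.52 CPM for APOE2, 3.14 for APOE3 and 2.53 for APOE4, a log2 ratio of 0.16 from APOE3 to APOE2. In T lymphocyte-like cells Cxcl16 and Cx3cl1 had 64 and 43 UMIs in APOE2, against 7 and 8 in APOE4, both past 2-fold. Of the Cxcl16 UMIs in APOE2, 50% came from 2 cells, and the 10 fibroblast markers summed to 4874 CPM for APOE2, 2222 for APOE3 and 1369 for APOE4 in this class, whose part in the result was not tested. Over 12 alternatives the log2 ratios from APOE2 to APOE4 rose as far as 0 for Cxcl16 and -0.19 for Cx3cl1, where neither was past 2-fold. Cxcl16 in endothelial-like cells had 61 UMIs in APOE2 and 3 in APOE4.

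Ccl27a, known as a skin chemokine and a ligand of Ccr10, was carried evenly by smooth muscle-like cells at 41.7 CPM (40.6 to 42.9) for APOE2, 47.9 (46.6 to 49.4) for APOE3 and 50.7 (49.3 to 52.1) for APOE4. In APOE2 50% of its UMIs came from 1012 cells, against 20 for Cxcl1. The libraries lay within 1.21-fold of each other, so the differences of Cxcl1, Cxcl2 and Ccl2 were not shared by the most evenly carried member of the class. Its identifier abuts Il11ra1 on the other strand and shares its symbol with near-identical copies, of which 1 had a single UMI. Ccl17 and Ccl22, which attract helper T lymphocytes through Ccr4, had 102 and 19 UMIs in all, and Ccl1 had 32. Ccl20, Ccl28 and Cxcl17 had 1, 30 and 36 UMIs.

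The receptors of these ligands lay mostly on leukocytes. Of 23 receptor genes, 13 reached 50 CPM and 50 UMIs in a class over the 3 libraries. Neutrophil-like cells carried Cxcr2 at 318 CPM, Ccr1 at 289 CPM and Ccrl2, a non-signalling receptor, at 1063 CPM. Macrophage-like cells carried Ccrl2 at 539, Cx3cr1 at 182 and Cxcr4 at 70.6 CPM. T lymphocyte-like cells carried Cxcr6 (150.1 CPM), Ccr2 (57.9) and Ccr9 (51.5), and B lymphocyte-like cells Ccr7 (301 CPM), Cxcr4 (294), Cxcr5 (79.2) and Ccr6 (73.4). Ackr3, which scavenges Cxcl12, was the receptor of the stromal cells, at 227 CPM in fibroblast-like and 122 CPM in endothelial-like cells. The ligand and receptor of a pair thus often lay in different classes, Cxcl13 in resident-like macrophages with Cxcr5 in B lymphocyte-like cells and Cxcl12 with Ackr3 in fibroblast-like cells. In macrophage-like cells 0 of the 6 receptors compared were 2-fold apart between APOE2 and APOE3. Ccr2 was lower in APOE4 than in APOE2 (20 UMIs against 264, past 2-fold) and APOE3 (log2 -1.13) there, and Ccr1 was higher in APOE4 than in APOE3 (log2 1.21).

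Among the cytokines known to induce chemokines, Tnf and Il1b lay in the myeloid cells. Tnf in macrophage-like cells was at 589 CPM for APOE2, 563 for APOE3 and 1029.8 for APOE4 and Il1b at 510.3 CPM for APOE2, 344 for APOE3 and 336 for APOE4. Tnf was thus highest in APOE4, as were Cxcl1, Cxcl2 and Ccl4 of these cells, and Il1b was highest in APOE2. Il6 was the cytokine of the stromal cells, at 11.2 CPM for APOE2, 9.86 for APOE3 and 32.2 for APOE4 in fibroblast-like and 2.27 CPM for APOE2, 0.0735 for APOE3 and 0.562 for APOE4 in smooth muscle-like cells. The order of its levels in smooth muscle-like cells (APOE2, APOE4, APOE3) was that of Cxcl1 and Ccl2, while in fibroblast-like cells APOE4 was the highest. Of the ligands whose symbol falls outside the pattern, Pf4 was at 1713 CPM in macrophage-like cells over the 3 libraries and Ppbp did not reach the level for naming.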

How the data were processed

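Droplet single-cell RNA libraries of aortic cells were measured, 1 per genotype. The authors aligned reads to mm10 and deposited UMI counts per gene and barcode made with Cell Ranger (7.0.1 in the file headers). Cells with at least 200 genes and under 20% mitochondrial UMIs were kept, with 168310501 (APOE2), 125105151 (APOE3) and 124926887 (APOE4) UMIs in all. Cells were integrated with Seurat 5.3.0 and sctransform 0.4.2 in R 4.3.3 (3000 features without chemokine members, 30 components, Louvain resolution 0.8). A cluster was named from 3 or more markers found in at least 10% of its cells and 2-fold raised over the other clusters. The smooth muscle rule, that at least 8 of 10 markers were kept at 50% of the level and that no 2 of the 10 leading genes belonged to another type, was set after the data were seen. Macrophage-like cells were sub-clustered with scanpy 1.11.5 (Leiden resolution 0.5, 20 neighbors). CPM is the summed UMIs of a member per 1000000 UMIs of the class. Intervals were computed with scipy 1.17.1 on Python 3.11.15. Members named by level reached 50 CPM and 50 UMIs in a class of a library, and ratios were named past 2-fold with 50 UMIs in both libraries together and 30 cells in each. Where a library had no UMI, the bound used a floor of 3 counts. The ratio script was tested on simulated Poisson counts of whole classes. These hold no spread between cells, so the intervals were not tested for it. Doublets were not removed, since the automatic Scrublet caller marked 1, 0 and 8 cells, and leaving out the highest scores was an alternative. Other alternatives changed the cell filter, the clustering, the integration, the class of each cell, the scaling, the UMI minimum and the fold, and 4 were added after the data were seen. Promoters came from RefSeq on GRCm38.p6, and gene positions from the GENCODE annotation of GRCm38. The members and the gene lists were chosen with earlier results of these data known. Since each genotype was 1 library of pooled mice, differences between genotypes were given as values of these libraries.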

Additional observations from a re-analysis of the deposited data

Results flagged for a closer look

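Ccl5 and Ccl4 moved in opposite directions between libraries in different cell classes, which is what brought them here. With 1 library per genotype the difference between the classes was not tested.

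Ccl5 was lower in smooth muscle-like cells and higher in macrophage-like cells in each of the 3 contrasts. From APOE3 to APOE2 its log2 ratio was -1.42 in smooth muscle-like and 1.39 in macrophage-like cells. From APOE3 to APOE4 it was -2.78 in smooth muscle-like and 2.80 in macrophage-like cells. From APOE2 to APOE4 it was -1.37 in smooth muscle-like and 1.41 in macrophage-like cells. The smooth muscle-like values rest on 58, 123 and 19 Ccl5 UMIs in APOE2, APOE3 and APOE4, a trace level. In APOE3, 97 of the 123 lay in 1 cell, and in the macrophage-like cells of APOE4, 96 of 136 Ccl5 UMIs lay in 1 cell, and the ratios without these cells were not computed.

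Ccl4 was higher in APOE4 than in APOE2 in fibroblast-like cells (log2 1.10) and in B lymphocyte-like cells (log2 3.69), and lower in T lymphocyte-like cells (log2 -1.14). The B lymphocyte-like value rests on 1 UMI in 32 cells of APOE2 and 74 UMIs in 271 cells of APOE4.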

How the results depend on the processing

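Of 78 named ratios, 44 stayed past 2-fold in the same direction under every alternative computed for them, and 978 of 1004 recomputed ratios kept their direction. Cxcl1, Cxcl2, Ccl2 and Ccl7 in smooth muscle-like cells from APOE3 to APOE2 stayed past 2-fold in all 14 alternatives, between 1.61 and 4.07, 2.23 and 6.37, 2.65 and 6.40, and 2.53 and 6.35 on the log2 scale. Of 141 recomputed counts of members past 2-fold, 113 stayed within 1.5 times the reported count. The causes of the changes below were not tested, apart from those set by a fold or UMI limit.

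In smooth muscle-like cells, a Louvain resolution of 0.4 turned the log2 ratios from APOE2 to APOE4 to 0.00354 for Cxcl5 and 0.34 for Cxcl1. A resolution of 1.6 turned Cxcl5 to -3.09 from APOE3 to APOE2, -0.89 from APOE3 to APOE4 and 2.20 from APOE2 to APOE4, and Cxcl1 to 0.20 from APOE2 to APOE4. At both resolutions the cluster led by Spp1, Vcam1 and Lcn2 was unnamed and not in this class. Classing each cell by its own markers turned Ccl5, Ccl3 and Ccl4 from APOE3 to APOE2 to 1.28, -0.73 and -0.35, and Cxcl5 from APOE3 to APOE4 to -0.43. Merging without integration turned Ccl3 and Ccl4 to -1.61 and -1.10 from APOE3 to APOE2, and Cxcl5 and Ccl2 to -4.09 and -1.51 from APOE3 to APOE4. With members among the clustering features Cxcl5 from APOE3 to APOE4 was -1.09. Leaving out cluster 6, an alternative chosen after seeing the data, turned Cxcl1 and Ccl5 from APOE2 to APOE4 to 0.36 and 0.56. Classing by own markers turned Ccl4 in fibroblast-like cells from APOE2 to APOE4 to -0.65. Cxcl2 in T lymphocyte-like cells from APOE2 to APOE4 turned to 1.06 at resolution 0.4, 1.04 with own markers, 0.56 with the mean of the CPM of each cell and 0.53 without cells above 5 times the median UMIs, also chosen after seeing the data.

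Counts of members past the fold changed as follows, with contrasts in the order APOE2 to APOE3, APOE4 to APOE3 and APOE4 to APOE2. The share of all genes is not given beside these counts, so they show only how the number depends on the setting. Without a UMI minimum they were 26, 15 and 22 in smooth muscle-like, 16, 14 and 15 in fibroblast-like and 14, 13 and 11 in macrophage-like cells. At 1.5-fold they were 6 (fibroblast-like, APOE4 to APOE3), 7 and 8 (macrophage-like, APOE4 to APOE3 and to APOE2). At 3-fold they were 9 (smooth muscle-like, APOE2 to APOE3), 1 and 4 (fibroblast-like, APOE4 to APOE3 and to APOE2), 4 and 2 (macrophage-like, APOE2 to APOE3 and APOE4 to APOE2). From APOE2 to APOE4 in smooth muscle-like cells they were 6 and 7 at resolutions 0.4 and 1.6, and 5 without cluster 6. With own markers they were 3 in smooth muscle-like cells (APOE4 to APOE3), and 7 and 12 in macrophage-like cells (APOE4 to APOE3 and to APOE2). For fibroblast-like cells from APOE3 to APOE4 the count was 5 at resolution 1.6, 5 without integration, 5 with scaling by the median gene and 5 with the mean of the CPM of each cell, which also gave 4 from APOE2 to APOE4. No paired analysis was possible because each genotype was 1 library. Depth limits the small classes, since APOE3 gave 23 T lymphocyte-like, 19 endothelial-like and 10 neutrophil-like cells. Thinned to 3000 UMIs, 3.79%, 1.31% and 4.21% of smooth muscle-like cells of APOE2, APOE3 and APOE4 held Cxcl1, so that APOE2 no longer exceeded APOE4 in this share.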

Other observations

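Among genes outside the ligand family, the inducing cytokines differed by class in the same libraries. Il6, which drives acute-phase and stromal responses, had log2 ratios to APOE3 in smooth muscle-like cells of 4.95 for APOE2 and 2.94 for APOE4. Neutrophil-like cells carried Il1b at 8816 CPM, Tnf at 567 CPM and Il1a at 242 CPM over the 3 libraries. Ltb, a lymphotoxin subunit needed for lymphoid tissue, was at 320.1 CPM in B lymphocyte-like and 209 CPM in T lymphocyte-like cells.

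Cluster 18 stayed unnamed because it raised all 10 macrophage markers while it kept all 10 smooth muscle markers, at a median of 1178 UMIs per cell (142, 38 and 63 cells in APOE2, APOE3 and APOE4). Ccl24 was among its leading genes, at 48.4 CPM for APOE2, 111 for APOE3 and 57.7 for APOE4. Ccl8 was at 145 CPM for APOE2, 133 for APOE3 and 35.1 for APOE4 there, Ccl4 at 451 CPM for APOE2, 495 for APOE3 and 334 for APOE4 and Cxcl2 at 321 CPM for APOE2, 299 for APOE3 and 669.6 for APOE4. As in the macrophage-like cells, Ccl24 was the lowest in APOE2.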
